A study of Mus musculus with 1528 samples.

Results

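S-phase macrophages are taken here as the bone marrow-derived macrophages (BMDMs) with the highest levels of a small set of DNA replication genes. Of 1439 kept cells, 109 were members and 1330 were not. Members were selected on transcripts alone. The S score of a cell was the mean log2(CPM + 1) of Rrm2, Esco2, Mcm3, Mcm5, Mcm6, Cdc6 and Hells, where CPM is a fragment count scaled by the total of gene fragments, so that every cell has the same total. Members were the top 12% of kept cells by this score, less the cells in the top 10% by the same mean over the G2/M genes Ccnb1, Ccnb2, Cdc20, Plk1, Cenpa, Aspm and Hmmr. The S score put 173 cells in its top 12%, and 64 of them were left out as G2/M-high.

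The data are Smart-seq2 RNA libraries of 1524 wells with 1 BMDM each, from 2 wild-type C57BL/6 mice. Bone marrow was cultured with CSF1 (M-CSF) for 7 days, and all cells received IL4 and IL13 at 10 ng/ml each for 24 h, with no other agent (IL4+IL13) or together with 10 ng/ml TNF (IL4+IL13+TNF). Each of the 4 plates held both treatments of 1 mouse, plates 2 and 3 for mouse 1 and plates 4 and 5 for mouse 2, so mouse and plate cannot be told apart. The number 1 or 2 in a sample's title was read as the mouse, since the series' design text names 2 separate mice, and the study describes independent experiments, which cannot be told apart from the mice either. A kept cell had at least 200000 gene fragments, at least 5000 detected genes and at most 10% mitochondrial fragments. The 4 samples (mouse by treatment) held 362, 359, 363 and 355 kept cells, in the order IL4+IL13 mouse 1, IL4+IL13 mouse 2, IL4+IL13+TNF mouse 1 and IL4+IL13+TNF mouse 2, which is used for all values below.

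CSF1 drives the growth of macrophage precursors in these cultures, and cells leave the cycle as they mature. Before S phase the origin recognition complex, Cdc6 and Cdt1 load the ring of Mcm2 to Mcm7 on replication origins, a step named licensing. Cyclin E with Cdk2 then releases the E2F factors, the rings are fired with Cdc45 and the GINS proteins, and polymerases, the Pcna clamp and enzymes that make deoxynucleotides copy the genome. Mitotic genes are transcribed later, from late S phase onwards.

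The members were unevenly spread over the mice. They numbered 52, 6, 43 and 8, which was 14.4% (exact 95% binomial interval 10.9 to 18.4), 1.67% (0.616 to 3.60), 11.8% (8.71 to 15.6) and 2.25% (0.978 to 4.39) of the kept cells. Mouse 1 gave 95 of 725 cells (13.1%) and mouse 2 gave 14 of 714 (1.96%). Thus 2 of the 4 samples rest on 6 and 8 cells, and every value given for mouse 2 below has that depth. The intervals cover counting error only, and cells of 1 mouse are not replicates.

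Within mouse 1, plate 2 held more members than plate 3 in either treatment. The IL4+IL13 shares were 18.8% (34 of 181) on plate 2 and 9.94% (18 of 181) on plate 3, and the IL4+IL13+TNF shares were 15.7% (28 of 178) and 8.11% (15 of 185). In mouse 2 the shares were 1.62% (3 of 185) and 1.72% (3 of 174) without TNF and 2.86% (5 of 175) and 1.67% (3 of 180) with TNF.

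**Figure D1:**
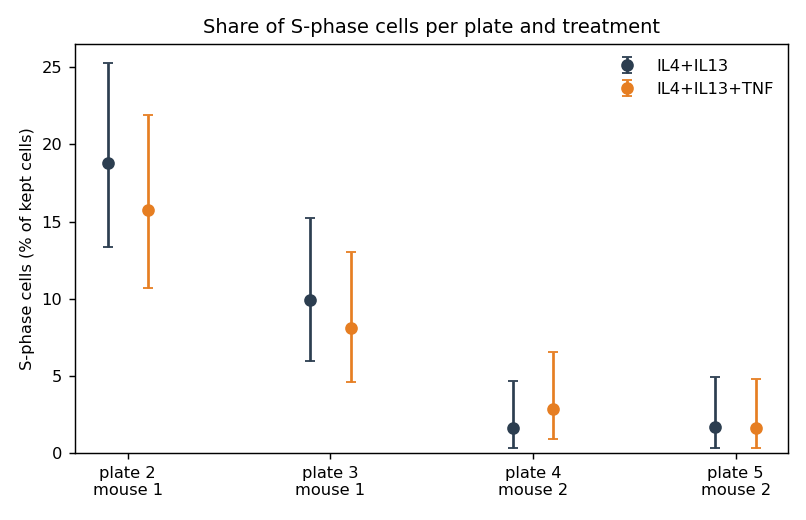
Share of S-phase cells among the kept cells of each plate and treatment, in percent, with exact 95% binomial intervals that cover counting error only. The 4 values of mouse 1 (8.11% to 18.8%) lie above the 4 values of mouse 2 (1.62% to 2.86%), while the 2 treatments of a plate differ by at most 3.05 points.

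The study asked how TNF changes macrophages given IL4+IL13, and the share of members answers whether their number moved with TNF. The mean share was 8.02% ± 8.98 (SD, n = 2) without TNF and 7.05% ± 6.78 (SD, n = 2) with TNF, a difference of -0.97 percentage points (two-sided exact permutation test over the 4 samples, p = 1.0, where 0.33 is the smallest p that 2 against 2 allows). The difference was -2.52 points in mouse 1 and 0.58 points in mouse 2. By plate it was -3.05 and -1.84 points on plates 2 and 3 and 1.24 and -0.06 points on plates 4 and 5. For comparison, the cells that were G2/M-high but not S-high made up 9.94% and 6.96% of the kept cells without TNF and 3.58% and 1.69% with TNF, so that the treatments did not overlap there. The cells high in both scores made up 8.01% and 3.06% without TNF and 3.03% and 3.66% with TNF, and there the treatments overlapped. Whether TNF acted differently on these classes was not tested.

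The S score ran from 4.10 to 9.09 in the members, with a median of 6.26, and had a median of 1.23 in the other cells. The 3 members just inside the limit scored 4.10, 4.13 and 4.16, and the 3 cells just outside it scored 4.09, 4.05 and 4.05. Within 0.5 of the limit there were 20 members, so the class is a range of a score and not a separate group of cells. All 7 genes were found in 46 of the 109 members, 6 in 37, 5 in 17 and 4 in 9. In the other cells all 7 were found in 21 of 1330 and none in 101. The G2/M score of the members ran from 0 to 6.65, with a median of 3.13, against the limit of 6.70 above which cells were left out.

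**Figure D2:**
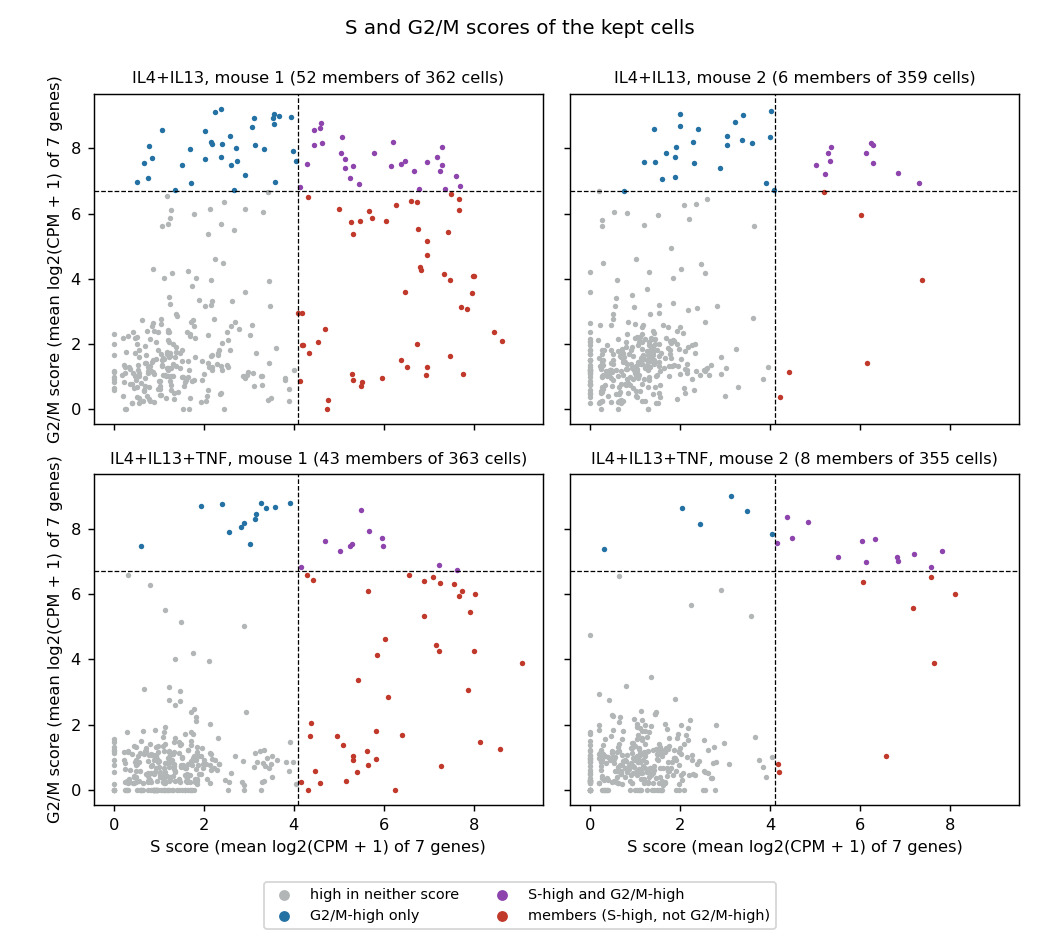
S score against G2/M score (each the mean log2(CPM + 1) of 7 genes), 1 point per kept cell and 1 panel per sample. Dashed lines mark the limits at 4.10 and 6.70, and the 109 members (red) lie to the right of the vertical line and below the horizontal line, with G2/M scores from 0 to 6.65.

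The genes that chose the members are given as a description, with no test. Counts were summed over the members and over the other kept cells of each sample, and levels are CPM with TMM scaling of the sums. In summed counts, fewer expressing cells and less RNA per cell cannot be told apart. Rrm2, the small subunit of ribonucleotide reductase, was at 416, 419, 441 and 424 CPM in the members and at 63.3, 19.7, 26.1 and 23.8 in the other cells. Its 4 member values lie within a narrow range. Mcm6 was at 431, 326, 435 and 266 CPM against 113, 54.3, 71.8 and 44.9, and Mcm3 at 285, 218, 305 and 238 against 44.3, 28.5, 31.4 and 27.0. Mcm5 was at 279, 95.4, 219 and 226 CPM against 35.6, 21.7, 25.9 and 15.2. These 3 genes encode parts of the ring that becomes the replicative helicase. Cdc6, which loads the ring, was at 51.4, 50.0, 81.5 and 46.6 CPM against 2.64, 3.48, 1.76 and 2.08. Hells, a chromatin remodeller, was at 102, 39.9, 103 and 132 CPM against 8.81, 7.71, 9.0 and 9.61, and Esco2, the cohesin acetyltransferase of S phase, at 51.4, 149, 59.1 and 92.4 against 11.4, 5.86, 5.6 and 6.51. For none of the 7 genes did the members overlap with the other cells, as the rule sets. The 7 G2/M genes overlapped between the classes, for example Ccnb1 (cyclin B1) at 60.7, 23.4, 74.8 and 45.0 CPM in the members and 64.1, 45.1, 30.7 and 22.4 in the other cells.

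E2F factors bind a short GC-rich site that many replication genes carry close to their start. The stretches upstream of 3 of the rule genes and of Uhrf1, which had the highest correlation with the S score outside the rule, are shown 5′ to 3′ on the strand of the gene, with matches to the letters TTTCCCGC, TTTCGCGC, TTTGCCGC or TTTGGCGC, on either strand, in capitals. They are RefSeq promoter windows of build GRCm38.p6, without bases that the annotation gives as exonic. They lie at chr8:75109259-75109508 (plus strand) for Mcm5, chr1:128359706-128359955 (minus) for Mcm6, chr11:98907982-98908150 (plus) for Cdc6 and chr17:56304063-56304312 (plus) for Uhrf1. The Uhrf1 stretch lies before the downstream of its 2 starts, inside the gene and outside its exons, and the stretch before the upstream start held no match. The stretches of the rule genes Mcm3, Rrm2 and Hells, taken the same way, held no match and are not shown.
Mcm5: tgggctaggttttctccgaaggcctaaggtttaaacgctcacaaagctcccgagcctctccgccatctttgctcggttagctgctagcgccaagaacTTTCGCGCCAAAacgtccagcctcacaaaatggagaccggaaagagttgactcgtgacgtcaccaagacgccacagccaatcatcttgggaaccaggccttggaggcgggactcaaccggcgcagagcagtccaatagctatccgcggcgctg
Mcm6: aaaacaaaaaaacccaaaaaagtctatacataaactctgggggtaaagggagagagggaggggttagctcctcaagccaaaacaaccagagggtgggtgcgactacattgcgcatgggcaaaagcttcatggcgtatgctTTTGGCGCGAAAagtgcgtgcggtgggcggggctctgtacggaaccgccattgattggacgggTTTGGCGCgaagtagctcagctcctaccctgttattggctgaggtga
Cdc6: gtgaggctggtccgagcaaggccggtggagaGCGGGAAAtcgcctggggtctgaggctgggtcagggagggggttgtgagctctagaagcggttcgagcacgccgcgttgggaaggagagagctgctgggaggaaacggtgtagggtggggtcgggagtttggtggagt
Uhrf1: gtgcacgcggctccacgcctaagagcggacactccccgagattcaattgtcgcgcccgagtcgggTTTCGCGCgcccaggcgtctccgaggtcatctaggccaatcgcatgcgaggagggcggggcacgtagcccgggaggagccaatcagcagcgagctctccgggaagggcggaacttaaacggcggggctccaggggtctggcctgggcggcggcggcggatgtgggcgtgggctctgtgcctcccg
The runs in capitals at Mcm5 and the upstream run at Mcm6 each hold 2 overlapping matches on opposite strands. In windows from 250 bases before to 50 after a start, such letters were found for 5 of the 6 rule genes with a window and for 28 of 95 genes (29.5%) of the 7 replication lists described below. The share was 2.60% over all 27025 genes with a window and 4.56% over the 9686 tested genes with one. For the origin licensing list it was 5 of 11, for the replication fork list 7 of 20, and for the nucleotide supply list 0 of 15. For the ribosome biogenesis list, also described below, it was 3 of 9. Of the 29 genes called higher below, 21 had a window and 5 of these held a match. The letters TTTGAA or TTCGAA, written for the CHR element of mitotic promoters, were found for 19 of 23 genes (82.6%) of the G2 and mitosis list and for 21.7% of all genes. Of 781 E2F matches, 5 shared bases with a CHR or CCAAT match. A match of letters is a description and shows no binding.

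Genes outside the rule were compared between members and other cells of the same sample. The 8 sums (2 classes by 4 samples) were tested with edgeR's quasi-likelihood test with the sample as a block, over 17482 genes. The 4 blocks are 2 treatments of each of 2 mice, so they are not 4 independent replicates, although the test takes them as such. The fragments that set the classes and those tested come from the same cells, so a call describes what goes with the rule and is not an independent test of it. At an adjusted p under 0.05 there were 29 higher genes (0.166% of those tested) and 1 lower gene (0.00572%), and 1741 genes had an unadjusted p under 0.05. DESeq2 on the same sums called 743 higher (4.25%) and 430 lower (2.46%) genes. The members were higher in 4 of 4 samples for 1607 genes (9.19%) and lower in 4 of 4 for 2617 genes (15%), and the median log2 fold change over all genes was -0.16. No gene passed with edgeR when IL4+IL13 mouse 1, IL4+IL13 mouse 2, IL4+IL13+TNF mouse 1 or IL4+IL13+TNF mouse 2 was left out. In these fits 1308 to 1778 genes had an unadjusted p under 0.05. They also rest on fewer sums, and the part of this in the loss of calls was not tested. The median log2 fold change of the origin licensing list was then 1.86, 1.80, 1.80 and 2.29, beside 1.88 with all samples. Ranking the cells within each sample in place of all together also left 0 calls (1584 at an unadjusted p under 0.05), while 168 genes passed without the replicate block. Of the 29 higher genes, 25 belong to the 7 lists of replication genes.

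Ccne2, cyclin E2, which drives entry into S phase with Cdk2, had the largest rise. It lies at chr4:11191351-11204779 (mm10, plus strand). It was at 129, 127, 107 and 131 CPM in the members and 7.96, 3.28, 2.25 and 2.98 CPM in the other cells. No member sum lay near a sum of other cells. The log2 fold change was 5.09 (SE 0.35, edgeR adjusted p = 0.0255), and a fragment was found in 67.0% of the members against 11.5% of the other cells, each cell thinned to 200000 fragments. SE, here and below, is the size of the log2 fold change over the square root of the test's F value. It was not estimated separately, so no interval can be built from it. Uhrf1 (chr17:56303321-56323486, plus strand), which carries DNA methylation to the new strand together with Dnmt1, was at 184, 162, 140 and 184 CPM against 15.7, 8.07, 9.59 and 7.54. Its log2 fold change was 4.09 (SE 0.23, edgeR adjusted p = 0.0226), and it was found in 95.4% of the members and 17.3% of the other cells. Dnmt1 itself was at 151, 140, 139 and 134 CPM against 53.2, 50.0, 32.1 and 35.5, a log2 fold change of 1.75 (SE 0.16, edgeR adjusted p = 0.0456).

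Of the origin licensing list (13 genes, all tested) 5 were called higher with edgeR and 8 with DESeq2, 10 were higher in 4 of 4 samples, and the median log2 fold change was 1.88. Mcm4, a further part of the ring, was at 213, 157, 181 and 155 CPM in the members and 35.7, 24.2, 25.4 and 18.9 in the other cells (log2 fold change 2.78, SE 0.14, edgeR adjusted p = 0.0226). Mcm2 and Mcm7 rose by log2 fold changes of 3.38 (SE 0.31) and 3.30 (SE 0.30, edgeR adjusted p = 0.0431 for both). Orc6 was at 126, 98.3, 94.2 and 106 CPM against 22.1, 15.3, 15.4 and 16.9 (2.62, SE 0.15, edgeR adjusted p = 0.0226). The other subunits of the origin recognition complex, Orc1 to Orc5, passed neither test. Orc3 was at 45.0, 26.6, 56.9 and 54.0 CPM against 43.6, 28.8, 42.7 and 29.1, and Orc4 at 63.8, 5.20, 53.7 and 34.2 against 47.0, 40.8, 46.1 and 34.3, with overlapping groups. Gmnn, geminin, which holds Cdt1 and blocks a new round of licensing, was at 282, 195, 193 and 148 CPM against 84.3, 53.8, 55.1 and 42.7 (1.80, SE 0.10, edgeR adjusted p = 0.0226). Cdt1, its target, was at 125, 118, 130 and 116 CPM against 30.5, 33.6, 16 and 19.7, and Mcm10 at 60.2, 34.1, 44.0 and 63.9 against 8.75, 4.65, 2.75 and 3.91. Neither group overlapped, and both genes missed the threshold of edgeR (adjusted p = 0.0605 for each) and passed that of DESeq2.

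The origin firing list (12 genes) held 0 edgeR calls and 8 DESeq2 calls, all higher, and 8 genes higher in 4 of 4 samples, with a median log2 fold change of 1.85. Cdc45, which completes the helicase, was at 102, 55.5, 75.2 and 44.1 CPM against 14.8, 6.59, 4.12 and 6.99 (3.17, SE 0.34, edgeR adjusted p = 0.061). Cdc7, the kinase of origin firing, was at 35.1, 53.2, 17.1 and 0.225 CPM against 7.29, 4.57, 4.47 and 5.94, with the low value in IL4+IL13+TNF mouse 2, and its partner Dbf4 at 37.9, 41.9, 40.1 and 28.3 against 28.6, 37.4, 18 and 22.6.

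Of the replication fork list (24 genes) 6 were called higher with edgeR (Lig1, Tipin, Prim1, Rpa2, Pcna and Rfc2) and 22 with DESeq2, 21 were higher in 4 of 4 samples, and the median log2 fold change was 1.74. Lig1, the ligase of the lagging strand, was at 172, 76.0, 141 and 139 CPM against 26.5, 14.2, 15.2 and 16.3 (2.86, SE 0.19, edgeR adjusted p = 0.0251). Tipin, which steadies stalled forks, was at 224, 279, 154 and 209 CPM against 42.0, 34.1, 28.9 and 23.9 (2.75, SE 0.19, edgeR adjusted p = 0.0251). Pcna (chr2:132249162-132253314, minus strand), the sliding clamp, was at 599.5, 423, 439 and 380.1 CPM against 202, 143, 139 and 95.8, a log2 fold change of 1.69 (SE 0.11, edgeR adjusted p = 0.0233). It was also found in 94.4% of the other cells, so it separates the classes by level and not by detection. The pseudogene Pcna-ps2 was called with 1.74, and since its sequence is close to Pcna the split of fragments between them is uncertain. Pole, the leading-strand polymerase, was at 29.8, 66.5, 30.7 and 70.2 CPM against 7.21, 5.59, 2.76 and 2.77 (3.44, SE 0.50, edgeR adjusted p = 0.0938).

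Of the nucleotide supply list (16 genes) 3 were called higher with edgeR (Tyms, Tk1 and Rrm1), and DESeq2 called 12 higher and 1 lower, with a median log2 fold change of 1.05. Rrm1, the large subunit of ribonucleotide reductase, was at 309, 267, 262 and 236 CPM against 96.7, 41.5, 50.1 and 38.1 (2.34, SE 0.20, edgeR adjusted p = 0.0421). Tyms, thymidylate synthase, was at 109, 66.5, 94.9 and 54.0 CPM against 23.2, 10.0, 10.9 and 8.29 (2.70, SE 0.22, edgeR adjusted p = 0.0352). Samhd1, which breaks down deoxynucleotides, lay the other way, at 244, 157, 260 and 229 CPM against 292, 337, 358 and 387. It was lower in 4 of 4 samples (-0.64, SE 0.16) and passed with DESeq2 (adjusted p = 0.012) but not with edgeR (adjusted p = 0.242). Cad, which starts pyrimidine synthesis, was at 15.2, 0.289, 15 and 19.3 CPM against 10.2, 5.90, 12.9 and 10.1, with the low value in IL4+IL13 mouse 2.

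Of the list for chromatin copying and cohesion (18 genes) 5 were called higher with edgeR (Uhrf1, Dscc1, Atad2, Slbp and Dnmt1) and 16 with DESeq2, and the median log2 fold change was 1.93. Slbp, which binds the end of histone mRNAs, was at 272, 185, 212 and 131 CPM against 71.6, 43.8, 51.1 and 47.6 (1.88, SE 0.15, edgeR adjusted p = 0.0352). Dscc1, part of a clamp loader for cohesion, rose by a log2 fold change of 3.73 (SE 0.32, edgeR adjusted p = 0.0409). Esco1, the paralog of Esco2 that is not tied to S phase, was lower in 4 of 4 samples, at 32.5, 13.9, 25.7 and 0.45 CPM against 32.6, 29.8, 32.7 and 35.2, without passing either test.

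The list for fork repair and checkpoint (19 genes) had the highest median log2 fold change, 2.62, with 3 edgeR calls (Rad51ap1, Brca1 and Rad54l) and 14 DESeq2 calls, all higher. Brca1 was at 51.7, 54.6, 35.3 and 56.7 CPM against 6.50, 5.53, 5.71 and 4.63 (3.13, SE 0.28, edgeR adjusted p = 0.0431). Ung, which removes uracil from DNA, was at 43.7, 34.4, 53.9 and 23.8 CPM against 3.79, 0.43, 3.70 and 1.69 (4.32, SE 0.61, edgeR adjusted p = 0.0879). Chek1, the checkpoint kinase, was at 40.1, 5.49, 34.9 and 59.4 CPM against 5.20, 3.81, 1.85 and 2.63, and Atr, the kinase above it, at 30.1, 4.91, 23.8 and 27.7 against 11.4, 16.3, 12.1 and 16.9, where the groups overlapped.

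Of the E2F and G1/S regulators (19 genes) 3 were called higher with edgeR (Ccne2, Skp2 and Cdk2) and 15 with DESeq2, with a median log2 fold change of 1.35. Cdk2 was at 149, 101, 111 and 102 CPM against 50.0, 34.5, 35.2 and 40.0 (1.53, SE 0.13, edgeR adjusted p = 0.0409). The E2F family was uneven, with E2f7 at 27.7, 4.91, 22.2 and 56.7 CPM against 2.98, 1.39, 0.907 and 1.12, E2f8 at 59.7, 44.5, 46.8 and 12.8 against 7.66, 8.03, 3.27 and 7.52, and E2f1 at 61.3, 38.2, 52.2 and 48.4 against 37.3, 25.8, 31.2 and 23. All 3 passed with DESeq2 only. Mybl2 was at 19.6, 29.2, 10.1 and 41.4 CPM against 1.09, 0.436, 1.37 and 0.368 (4.99, SE 0.89, edgeR adjusted p = 0.136). Ccnd3 was at 55.2, 97.1, 63.0 and 70.2 CPM against 39.8, 28.1, 35.5 and 20.9, and Ccnd2 at 5.93, 1.45, 11.5 and 5.62 against 4.53, 4.40, 9.54 and 6.96. Myc was at 28.5, 6.07, 57.3 and 6.75 CPM against 26.6, 5.55, 43.7 and 6.14, where both classes were higher in mouse 1.

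**Figure D3:**
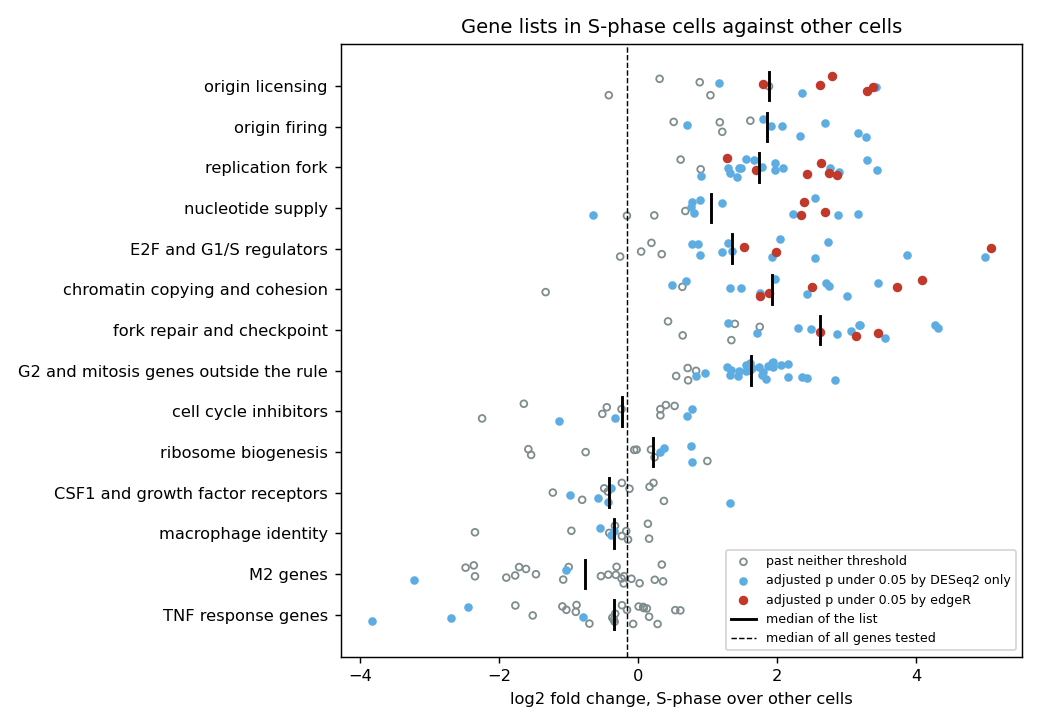
Log2 fold change (members over other cells, edgeR) of each tested gene by list, 1 point per gene, filled red where edgeR and light blue where only DESeq2 gave an adjusted p under 0.05. Bars mark the median of a list and the dashed line the median of all genes (-0.16), and the medians of the 7 replication lists (1.05 to 2.62) lie to the right of that line while those of the M2, TNF response and macrophage identity lists lie to its left.

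Among the cell cycle inhibitors (14 genes, 13 tested) edgeR called 0 and DESeq2 called 2 higher and 2 lower, with a median log2 fold change of -0.24. The sign of that median was not stable, at 0.34 without the replicate block, 0.15 with G2/M-high cells kept and 0.08 with the top 16% of the S score. Cdkn1a, the p21 inhibitor of cyclin-dependent kinases, was at 492, 363, 370 and 366 CPM in the members and 259, 207, 236 and 227 in the other cells, with no overlap. Its log2 fold change was 0.77 (SE 0.09, edgeR adjusted p = 0.0611, DESeq2 adjusted p = 1.4e-16). Tob1, an antiproliferative factor, lay lower in 4 of 4 samples, at 42.6, 31.8, 16.1 and 6.30 CPM against 54.8, 70.8, 30.2 and 29.2. The p27 gene Cdkn1b was at 13.3, 3.47, 11.7 and 10.1 CPM against 11.6, 27.5, 7.58 and 11.3, and the groups overlapped.

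Genes of G2 and mitosis outside the rule (30 genes) were not called with edgeR, although DESeq2 called 26 higher and 26 were higher in 4 of 4 samples, with a median log2 fold change of 1.63. Cells with the highest G2/M scores had been removed from the members and stayed among the other cells. With those cells also left out of the other cells, an alternative chosen after the data were seen, edgeR called 28 of the 30 higher. Top2a, the topoisomerase that untangles copied chromosomes, was at 307, 598, 247 and 520 CPM against 107, 85.9, 57.7 and 52.1 (2.43, SE 0.32, edgeR adjusted p = 0.0761). Mki67, the gene of the Ki-67 antigen, was at 176, 320, 158 and 279 CPM against 118, 103, 34.0 and 43.3. Fbxo5, which holds back the mitotic ubiquitin ligase during S phase and stood in none of the lists, was called higher, at 104.5, 161, 86.2 and 73.5 CPM against 21.3, 12.8, 9.99 and 8.63 (3.04, SE 0.27, edgeR adjusted p = 0.0431).

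Split into the 4 classes of the scores, the members lay above both G2/M-high classes for the licensing and fork lists. For the other replication lists the cells high in both scores lay above the members. These values are a description, since the scores made the classes, and are means over the 4 samples of CPM. The licensing list summed to 1261 CPM in the members, 942 in the 64 cells high in both scores, 497 in the 80 cells that were G2/M-high only and 287 in the 1186 cells high in neither. The G2 and mitosis list summed to 3678, 9785, 7499 and 370 CPM in the same order, and for 22 of its 30 genes the members lay below the G2/M-high cells in 4 of 4 samples. Ccne2 was at 125, 27.3, 2.73 and 2.53 CPM, Mcm2 at 150, 63.9, 18.4 and 12.2, and Cdc6 at 58.0, 30.6, 2.52 and 1.16, highest in the members in each case. Rrm2 was at 431, 574, 41.8 and 3.56 CPM, Top2a at 426, 1054, 384 and 9.65, and Fbxo5 at 108, 186, 38.1 and 2.90, highest in the cells high in both scores. Repair genes summed to 792 and 836 CPM in the members and the cells high in both scores, against 425 and 97.7 in the remaining classes. In the members and the cells high in both scores, origin firing summed to 629 and 720 CPM and nucleotide supply to 2014 and 2149. Chromatin copying and cohesion summed to 2150 and 2546 CPM, and the E2F and G1/S regulators to 1488 and 1511. The fork list went the other way, with 2458 and 2164 CPM.

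The members also differed among themselves along this line. Each cell was thinned to 200000 fragments, and genes of the G2 and mitosis list were counted. A median of 22 of the 30 were found per member, with a range of 6 to 30, where 23 members had 10 or fewer and 58 had 20 or more. Across the members of mouse 1 (n = 52 without and n = 43 with TNF), the mean log2(CPM + 1) of the origin firing list followed that of the G2 and mitosis list with Spearman's rho of 0.73 and 0.69, while the origin licensing list did so with 0.42 and 0.31. Single genes ranged widely. The value of rho against the G2 and mitosis list was 0.68 and 0.72 for Rrm2, 0.76 and 0.80 for Esco2, 0.74 and 0.77 for Fbxo5 and 0.66 and 0.70 for Tk1. It was -0.19 and 0.13 for Mcm3, -0.21 and 0.20 for Mcm2, 0.01 and -0.07 for Mcm4 and -0.10 and -0.18 for Hells. Cdkn1a followed the list with 0.63 and 0.60. Cells of a sample share library preparation and, in part, plate and depth, so these are descriptions. Mouse 2 had too few members for a value.

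**Figure D4:**
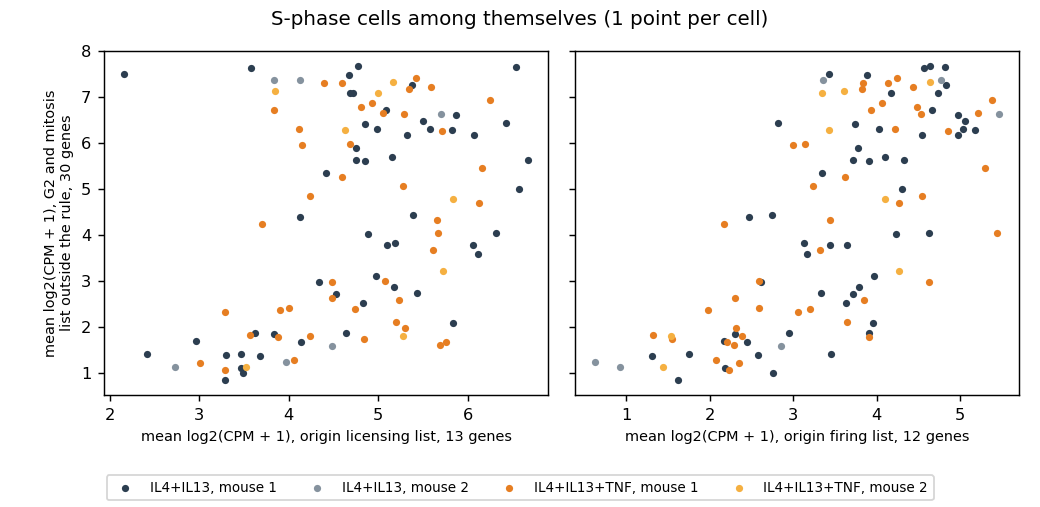
Mean log2(CPM + 1) of the G2 and mitosis list (30 genes) against that of the origin licensing list (13 genes, left) and the origin firing list (12 genes, right), 1 point per member, coloured by sample. The points line up more closely in the right panel (rho 0.73 and 0.69 in mouse 1) than in the left panel (0.42 and 0.31).

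The 10 genes outside the rule that followed the S score most closely over all kept cells, by Spearman's rho computed within each of the 4 samples and averaged, were Uhrf1 (0.49), Pbk (0.48), Pclaf (0.48), the predicted gene Gm11223 (0.47), Smc2 (0.47), Asf1b (0.46), Stmn1 (0.46), Rrm1 (0.46), Lig1 (0.45) and Top2a (0.45). Pclaf, a partner of Pcna, was at 369, 468, 313 and 372 CPM in the members against 106, 50.2, 32.2 and 33.8, and Asf1b, a histone chaperone, at 309, 290, 222 and 291 against 86.4, 44.0, 34.8 and 21.2. At the other end stood Cd63, a tetraspanin of endosomes, with a mean rho of -0.27. It was at 925, 804, 1109 and 888 CPM in the members and 1197, 1055, 1605 and 1382 in the other cells, lower in 4 of 4 samples (-0.48, SE 0.07, edgeR adjusted p = 0.0994).

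The lower gene of the comparison was Ms4a7 (chr19:11321039-11336146, minus strand), of the MS4A family of membrane proteins of macrophages. It was at 224, 277, 403 and 402 CPM in the members and 380, 584, 718 and 805 in the other cells. In each sample the members were lower, and across samples the groups overlapped, with both classes lowest in IL4+IL13 mouse 1. The log2 fold change was -0.92 (SE 0.09, edgeR adjusted p = 0.0466). The call was lost with library size in place of TMM scaling, with the top 8% of the S score and with a cell filter by median absolute deviation. Like every call, it was also lost with ranking within each sample or with 1 sample left out.

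**Figure D5:**
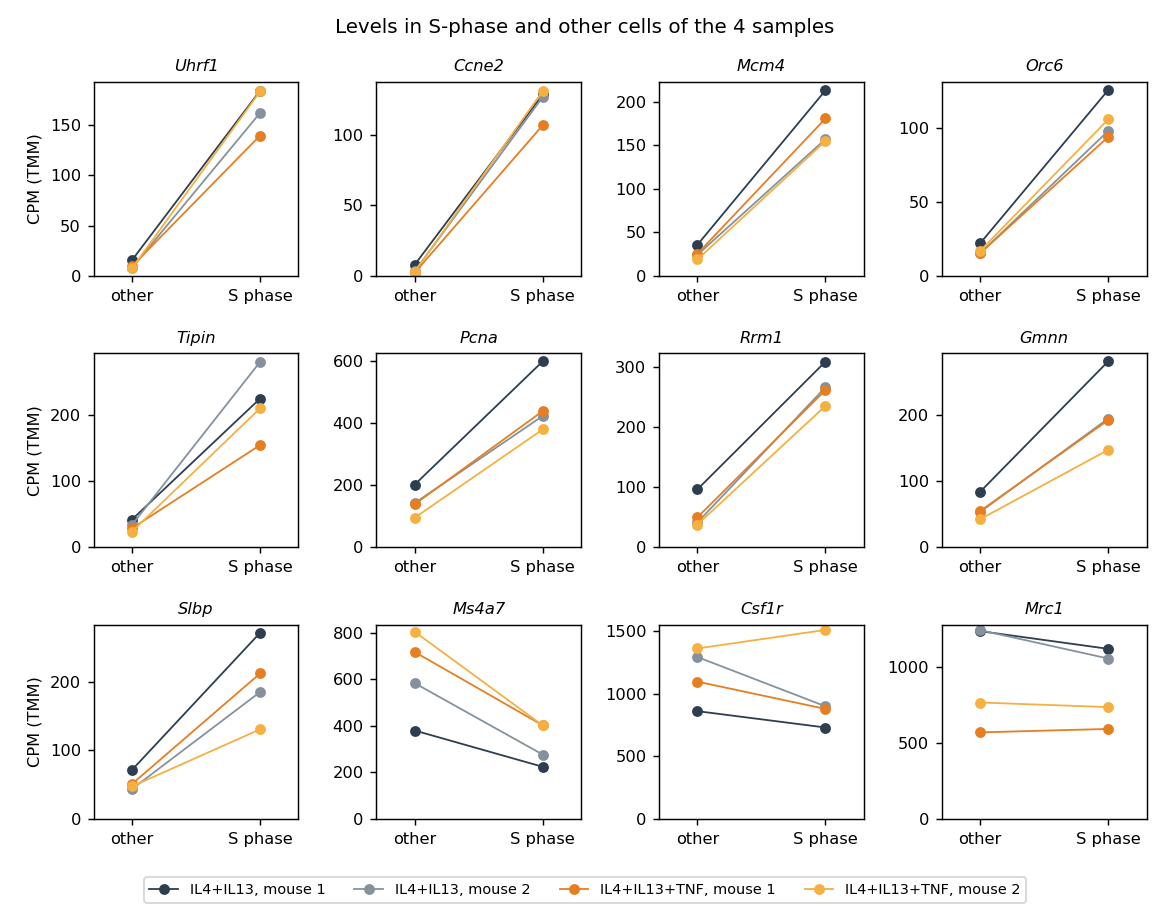
Level in CPM (TMM scaling) of 12 genes in the other kept cells (left of each panel) and the S-phase cells (right), with 1 line per sample and each axis starting at 0. The 9 replication genes are higher in S-phase cells in 4 of 4 samples, Ms4a7 is lower in 4 of 4, and Csf1r and Mrc1 go different ways in different samples.

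The label of macrophage was checked on 12 identity genes. They summed to between 16404 and 34675 CPM in the members and between 18217 and 31236 CPM in the other cells, and none was at 0. Csf1r, the CSF1 receptor, was at 729, 898, 877 and 1507 CPM in the members and 859, 1291, 1095 and 1359 in the other cells. Adgre1, the F4/80 antigen, was found in 99.1% of the members and 99.5% of the other cells, and Cd68 in 100% and 99.9%. No identity gene passed with edgeR (median log2 fold change -0.34), and DESeq2 called 3 of 12 lower, Cd68, Spi1 and C1qc. C1qc was at 328, 324, 246 and 280 CPM against 455, 551, 279 and 478.

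No tested marker of another cell type was called with edgeR or DESeq2. The 10 neutrophil and granulocyte precursor markers (3 tested) summed to 0.289 to 5.40 CPM in the members and 2.08 to 6.92 in the other cells, with Ly6g, Camp, Ngp, Elane, Prtn3 and Ltf at 0 in all members. The 10 lymphocyte markers (1 tested) summed to 0 to 6.98 against 2.11 to 3.77 CPM, with Cd3e, Cd3d and Ncr1 among those at 0. The 8 dendritic cell markers (5 tested) summed to 11.9 to 67.5 against 20.3 to 241 CPM, with Clec9a at 0, and the 9 stromal markers (2 tested) to 0.578 to 2.01 against 1.37 to 3.20 CPM, with Pdgfrb at 0. The 9 mast cell, erythroid and platelet markers (1 tested) summed to 27.7 to 66.0 against 33.3 to 69.6 CPM, with Mcpt8, Fcer1a, Hbb-bs and Klf1 at 0. The 9 monocyte and progenitor markers (7 tested) summed to 16.6 to 59.8 against 20.6 to 39.1 CPM. In that list Kit, the stem cell factor receptor of progenitors, was at 34.1, 0.289, 3.54 and 0.225 CPM in the members and 6.12, 2.59, 2.10 and 3.82 in the other cells, high only in the members of IL4+IL13 mouse 1 among these 8 sums. Its part in the results was not tested.

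No growth factor receptor or factor of macrophage maturation passed with edgeR (14 of 15 genes tested, median log2 fold change -0.41, beside -0.16 over all genes). In 4 of 4 samples 7 were lower and 1 higher, beside 15% and 9.19% of all genes. The summed CPM of the list was lower in the members, at 3470, 3394, 4118 and 4416 against 3865, 5100, 4872 and 5628. The median over cells of the mean log2(CPM + 1) of the list was 4.92, 5.39, 5.24 and 5.50 in the members against 4.90, 5.14, 5.34 and 5.43, higher in 3 of 4 samples. DESeq2 called 4 lower, among them Csf2rb2, Csf2ra and Spi1, and 1 higher, Ets2. Ets2, a target of CSF1 signalling, was at 41.1, 40.2, 85.8 and 117 CPM against 12, 9.15, 60.7 and 63.9. Ribosome biogenesis genes (12 tested) had a median of 0.21 with 0 edgeR calls and 4 higher with DESeq2, among them Dkc1 at 42.6, 27.2, 57.1 and 39.1 CPM against 22.7, 16, 36.3 and 22.7.

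The M2 genes induced by IL4 and IL13 (24 tested) held no edgeR call, with a median log2 fold change of -0.77. In 4 of 4 samples 7 were lower and 0 higher, beside 15% and 9.19% of all genes. DESeq2 called 2 lower, Retnla and Apoe, beside 2.46% of all genes. The level of the list did not go one way. The median over cells of its mean log2(CPM + 1) was higher in the members, at 2.58, 2.98, 2.34 and 2.53 against 2.41, 2.64, 2.09 and 2.32, and its summed CPM was lower in the members without TNF (3264 and 3101 against 3821 and 3878) and higher with TNF (2617 and 3233 against 2348 and 2794). Mrc1, the mannose receptor, was at 1120, 1056, 593 and 736 CPM in the members and 1236, 1243, 570 and 767 in the other cells. Clec10a, the lectin CD301a, was at 300.2, 276, 98.2 and 64.3 CPM against 255, 352, 82.6 and 126. Neither separated the classes. Retnla, which encodes RELMα, was at 31.8, 9.83, 0.792 and 5.62 CPM against 92.6, 514, 12.3 and 24.4, lower in 4 of 4 samples (-3.22, SE 0.79, edgeR adjusted p = 0.248). The TNF response genes (26 tested) held no edgeR call either, with a median of -0.34. DESeq2 called 0 higher and 4 lower (Jun, Ccl5, Cxcl1 and Cxcl10), beside 4.25% and 2.46% of all genes. The median over cells of the mean log2(CPM + 1) of the list lay the other way, at 2.64, 2.84, 4.35 and 4.26 in the members against 2.62, 2.60, 4.20 and 4.16. In counts of genes found per cell the classes had the same medians, 9 of 24 M2 genes, 13 of 26 TNF response genes and 10 of 12 identity genes, whereas 10 against 4 of 13 licensing genes and 20 against 8 of 24 fork genes were found.

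Histone genes of the Hist1 to Hist4 clusters were added as a list after the data were seen. Most mRNAs of these genes carry no poly(A) tail, and the libraries were primed with oligo-dT, so only part of them can be captured. Of 69 genes 34 were tested, edgeR called 0 and DESeq2 called 7 higher and 3 lower, with a median log2 fold change of 0.88. The median log2 ratio by sample was 0.17, -0.27, 0.83 and 0.48. The summed CPM of the 69 genes was lower in the members, at 183, 238, 231 and 181 against 336, 321, 298 and 322. The 2 directions fell on different genes. Hist1h2ao was at 16.4, 27.8, 18.6 and 23.2 CPM in the members and 7.10, 3.95, 3.17 and 2.72 in the other cells, and Hist1h2ap and Hist1h1b lay the same way. Hist1h2bc was at 56.0, 9.83, 63.0 and 30.8 CPM against 144, 145, 163 and 135, Hist1h1c at 20.4, 42.8, 30.2 and 43.2 against 89.8, 96.8, 64.0 and 115, and Hist3h2a lay lower as well. Cluster genes are near copies of each other and fragments were counted where they mapped uniquely, so these levels are uncertain. Across the members of mouse 1, Hist1h2ao followed the G2 and mitosis list with rho of 0.89 and 0.77.

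RNA content was read from spike-in RNA added to each well. The members had a median of 473336 gene fragments and 8584 genes, against 470292 fragments and 7791.5 genes in the other cells. The ratio of gene to spike-in fragments, compared within plate, was higher in the members by a mean log2 of 0.58, 0.24, 0.18 and 0.24 in the 4 samples, a mean of 0.31 ± 0.18 (SD, n = 4) or 1.24-fold. All 4 samples lay above 0, while 1 sample lay below 0 with the top 8% of the S score (-0.06 in IL4+IL13 mouse 2) and 1 with ranking within each sample (-0.12 in IL4+IL13+TNF mouse 1). The two-sided exact sign permutation test gave p = 0.13, the smallest it allows with 4 values. The 4 values are 2 treatments of each of 2 mice, so they are not 4 independent replicates. The total of gene fragments differed by 0.06 ± 0.13 (p = 0.5 in the same exact test). Spike-ins were a small share of the fragments, with medians of 178 fragments in a member and 244 in another cell.

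TNF was compared within the members on the 4 sums, 2 against 2. edgeR called 0 of 14003 genes (0%), and 444 had an unadjusted p under 0.05. DESeq2 called 77, 52 of them higher, edgeR without the gene filter called 111, and edgeR with the mouse as a block called 0 with 393 at an unadjusted p under 0.05. In the other cells edgeR called 1 of 16974 genes (0.00589%), Clec4e, with 1498 at an unadjusted p under 0.05. With the mouse as a block it called 615 (3.62%), and with IL4+IL13 mouse 1, IL4+IL13 mouse 2, IL4+IL13+TNF mouse 1 or IL4+IL13+TNF mouse 2 left out it called 6, 49, 43 and 14. Those sums hold 310 to 353 cells each. Of 24 TNF response genes tested in the members, 15 were higher with TNF in both mice, against 26.5% of all genes, with a median log2 fold change of 1.70, beside 22 of 26 and 1.98 in the other cells, where 34.2% of all genes were higher in both mice. Clec4e, the receptor Mincle, was at 12.4 and 72.0 CPM without and 844 and 1138 CPM with TNF in the members (log2 fold change 4.55, SE 0.99), beside 5.12 (SE 0.17) in the other cells. A fragment of it was found in 20 of 52 and 3 of 6 members without TNF and in 40 of 43 and 7 of 8 with TNF. Nfkbia, the NF-kB inhibitor, was at 145 and 132 CPM without and 605 and 379 with TNF, and Sod2, the mitochondrial superoxide dismutase, at 155 and 67.6 without and 561 and 668 with TNF. Saa3, an acute-phase protein, was at 0.281 and 0 CPM without and 191 and 267 with TNF, found in 2 of 52, 0 of 6, 23 of 43 and 4 of 8 members. These 4 genes were higher with TNF in both mice, as were 26.5% of all genes, and Saa3 was named after its values were seen. Each missed the threshold of edgeR in the members (adjusted p = 1 for Clec4e, Nfkbia and Sod2, and 0.765 for Saa3) and passed that of DESeq2.

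M2 genes lay lower with TNF in both mice for 10 of 24 in the members, against 26.9% of all genes, and for 14 of 24 in the other cells, against 32.2% of all genes there, with a median log2 fold change of -0.71 in each. Clec10a was at 300.2 and 276 CPM without and 98.2 and 64.3 with TNF in the members (-1.83, SE 0.30, beside -1.54, SE 0.29, in the other cells). It passed with DESeq2 (adjusted p = 0.00045) and not with edgeR (adjusted p = 1). Mrc1 was at 1120 and 1056 CPM without and 593 and 736 with TNF, with no overlap. Mgl2, the second gene of the CD301 pair, was at 720 and 735 CPM without and 516 and 983 with TNF in the members, and at 814 and 645 without and 375 and 500.4 with TNF in the other cells, so the treatments overlapped in the members. Arg1, arginase 1, was at 96.5 and 521 CPM without and 89.5 and 123 with TNF in the members (-1.57, SE 0.86) and at 42.4 and 177 without and 133 and 292 with TNF in the other cells (0.95, SE 0.74). Of the 24 fork genes in the members 8 were higher and 6 lower with TNF in both mice, near the shares of all genes (26.5% and 26.9%), with a median log2 fold change of 0.05. Uhrf1 had a log2 fold change with TNF of -0.10 (SE 0.28) and Ccne2 of -0.10 (SE 0.28). The G2 and mitosis list was lower with TNF in both mice for 14 of 30 genes in the members (median -0.20) and for 30 of 30 in the other cells (median -0.99, against 32.2% of all genes), where the G2/M-high cells had stayed in the latter.

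Whether the TNF effect differed between members and other cells was tested on the 8 sums with the interaction of class and treatment. edgeR called 0 of 17482 genes (0%), with 276 at an unadjusted p under 0.05. DESeq2 called 3, all with a negative interaction, and edgeR without the gene filter called 7. Arg1 had an interaction of -2.28 (SE 0.33), Acod1 of 2.64 (SE 0.46) and Ccl8 of 2.61 (SE 0.54), all with an edgeR adjusted p of 1, and Mgl2 of 0.71 (SE 0.25). Without TNF a fragment of Acod1 was found in 3 of 52 and 2 of 6 members and 18 of 310 and 60 of 353 other cells. With TNF it was found in 25 of 43 and 7 of 8 members and 187 of 320 and 261 of 347 other cells. Ccl8 was found in 12 of 52 and 5 of 6 members without and 20 of 43 and 6 of 8 with TNF. In the other cells it was found in 71 of 310 and 205 of 353 without and 178 of 320 and 254 of 347 with TNF. Its detection thus also rose with TNF in the other cells of both mice. A miss with 6 and 8 cells in 2 of the sums does not show that the effects were alike.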

How the data were processed

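Single BMDMs were sorted into wells with spike-in RNA and made into Smart-seq2 libraries, primed with oligo-dT and without molecular identifiers. Per the study's methods, gsnap placed the reads on mm10, and featureCounts 1.6.3 assigned fragments with a single mapping position to Ensembl genes. The authors deposited these values as raw counts per gene and well, in 1 table of 55421 genes (55154 with a symbol) and 92 spike-ins, which were left out of library sizes and tests. Of its columns, 11 were not used, and 4 wells without a group were left out. Strand was not stated to be used, so a gene and an antisense or overlapping partner cannot be told apart. No doublet caller was run, since single cells had been sorted. The members had a median of 473336 gene fragments and the other kept cells one of 470292.

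Members, lists and tests were chosen with earlier results of these data known, and the histone list was added after the data were seen. Counts were summed per sample and class. Genes found in at least 5% of either class and passing edgeR's filterByExpr were tested with edgeR 4.0.16 (quasi-likelihood, TMM) in R 4.3.3, with Benjamini-Hochberg adjustment over all genes tested and a threshold of 0.05. The 14 genes of the rule were not tested. DESeq2 1.42.0, library size scaling, no gene filter, other limits, cells thinned to 200000 fragments, and samples left out were alternatives, and the scripts were tested on simulated data. A prior of 0.5 CPM was used for per-sample log2 ratios. Samples were paired by the number in their titles, read as the mouse. Deviations of the same mouse from the group means correlated with r = 0.121 (14003 genes) in the members and 0.532 (16974 genes) in the other cells, across genes. With 2 mice, p-values measure the spread between these samples.

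Genes were named by a fixed rule. It takes the 14 rule genes, all genes of lists of up to 12 and otherwise the 3 with the highest CPM, highest and lowest log2 fold change, the 10 largest rises and 5 largest falls past the threshold, and the 10 genes closest to the S score. Cdk2, Skp2, Tk1, Prim1, Rpa2, Rad54l, Dnmt1, Slbp, Orc1, Orc6, Cdt1, Chek1, E2f1, E2f8, Ccnd3, Cdkn1b, Mki67, Pcna-ps2, Csf2ra, Csf2rb2, Apoe, Jun, Clec10a, Saa3, Acod1, Ccl8 and the histone genes were named after their values were seen. Promoter windows are from RefSeq (GRCm38.p6). Some genes of the lists are not reported here by name.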

Additional observations from a re-analysis of the deposited data

Results flagged for a closer look

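The ratio of gene to spike-in fragments, members against other cells, was 0.58 (log2) in IL4+IL13 mouse 1 and 0.18 to 0.24 in the other 3 samples, a gap of 0.836 of the whole range, just above Dixon's 95% critical value for 4 samples. Among the 30 genes called in the members, the log2 ratio of Ccne2 in IL4+IL13 mouse 1 (3.93) stood apart from those of the other 3 samples in the same way, and it was the 1 gene of the 30 to do so. Chance alone marks about 1 in 20 groups.

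The share of S-phase cells was lower with TNF in mouse 1 (-2.52 percentage points) and higher in mouse 2 (0.58 points). The difference between the mice was not tested.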

How the results depend on the processing

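The count of 30 genes that differed between S-phase and other cells changed to 1173 with DESeq2, 11 with the top 8% and 49 with the top 16% of the S score, 856 with G2/M-high cells not removed, 88 with every cell thinned and 0 with ranking within each sample. It was 0 to 0 with 1 sample left out, and 168 without the replicate block that pairs the 2 classes of a sample. In 2 alternatives chosen after the data were seen it was 276 with G2/M-high cells left out of the other cells and 195 in mouse 1 alone, summed per plate and treatment. The sums of mouse 1 alone come from plates of 1 animal and are not replicate mice. Ranking within samples kept 65 of the 109 members. The count was 30 with library size scaling, 27 without the gene filter and 24 with a cell filter by median absolute deviation. Over the called genes and all these alternatives 289 values kept their call and 191 lost it, and none changed direction. For TNF within the members, 0 calls became 77 with DESeq2 and 111 without the gene filter, and for the interaction 0 became 3 and 7. Pairing by mouse as a replicate block gave 0 calls for either. The TNF difference in the share of members ranged from -7.32 to 5.38 points with 1 sample left out. It turned positive without IL4+IL13 mouse 1 (5.38) and without IL4+IL13+TNF mouse 2 (3.83). With plates as a replicate block it was -0.93 (exact sign permutation test, p = 0.375), where the 4 plates come from 2 mice. The spike-in ratio was 0.22 to 0.35 with 1 sample left out and 0.14 with ranking within samples. The cause of these changes was not tested. The depth of mouse 2, with 6 and 8 members, limits every comparison between mice and treatments.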
